A study of Mus musculus with 6 samples.

Results

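The apolipoprotein L genes described here are Apol6, Apol8, Apol9a, Apol9b and Apol10b of the mouse, read from 6 RNA-seq libraries of the line AY-mICC, mouse cells used to study cancer of the intrahepatic bile ducts (cholangiocarcinoma). They are 5 of the 14 Apol genes with a row among 55414 gene identifiers, and were chosen by family and with their difference between shCopa and shCon libraries known, so every difference between the groups in these 5 genes is given as a description, and no p-value is given for it. Of the libraries, 3 were of cells whose Copa was knocked down (shCopa) and 3 were of control cells (shCon), all grown in DMEM with serum and antibiotics and with no treatment named. The prefix is the one commonly used for short hairpin RNAs, and neither the hairpins nor the number of clones is stated in the labels. Copa encodes a subunit of COPI, which coats vesicles on their way back to the endoplasmic reticulum from the Golgi.

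Apolipoprotein L proteins take their name from human APOL1, which is secreted, travels on high-density lipoprotein particles and kills trypanosomes. Mice have no counterpart of APOL1, and most other members of the family lack a secretion signal and stay inside the cell, where they associate with membranes. Several of them are induced by interferons: Apol9a and Apol9b of the mouse are known as interferon-induced proteins that bind the lipid phosphatidylethanolamine and restrict a picornavirus, and human APOL6 is known to promote cell death when overproduced. Interferons act on such genes through factors such as IRF9 that bind the interferon-stimulated response element (ISRE), and through a separate element, the gamma-activated site (GAS).

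In the RefSeq annotation of GRCm38.p6, all of these genes lie on mouse chromosome 15. Apol6 stands alone next to Rbfox2, and 11 protein-coding Apol genes follow in 1 run in the order Apol7a, Apol9a, Apol7b, Apol10a, Apol11a, Apol7c, Apol10b, Apol11b, Apol7e, Apol9b and Apol8, with Myh9 beyond Apol8. The authors' build was GRCm39, so positions of genes are not given for it. The promoters of Apol9a, Apol9b, Apol10b and Apol8 are shown because these members differed in the motifs they hold, and that of Apol7a because it was the other family member with enough counts to test. Each is RefSeq sequence of GRCm38.p6 on the strand of the gene, 250 bases before and 50 from an annotated start, and capitals mark matches on either strand to the core of the ISRE as searched here (GAAA, any 2 bases, then GAAA); where 2 matches overlap they form a single run of capitals.
Apol9a, chr15:77411031-77411330, minus strand: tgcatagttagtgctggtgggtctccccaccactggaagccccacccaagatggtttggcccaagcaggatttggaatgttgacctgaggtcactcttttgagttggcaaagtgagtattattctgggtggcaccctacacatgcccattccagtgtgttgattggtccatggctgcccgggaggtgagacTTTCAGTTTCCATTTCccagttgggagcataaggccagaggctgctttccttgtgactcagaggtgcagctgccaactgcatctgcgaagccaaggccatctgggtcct
Apol9b, chr15:77728822-77729121, plus strand: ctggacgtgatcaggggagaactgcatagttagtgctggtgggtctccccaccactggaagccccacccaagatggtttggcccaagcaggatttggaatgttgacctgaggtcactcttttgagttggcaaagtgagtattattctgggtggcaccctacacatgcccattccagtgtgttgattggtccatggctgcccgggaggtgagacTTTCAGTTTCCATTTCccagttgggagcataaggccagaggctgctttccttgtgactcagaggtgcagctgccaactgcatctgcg
Apol10b, chr15:77596076-77596375, minus strand: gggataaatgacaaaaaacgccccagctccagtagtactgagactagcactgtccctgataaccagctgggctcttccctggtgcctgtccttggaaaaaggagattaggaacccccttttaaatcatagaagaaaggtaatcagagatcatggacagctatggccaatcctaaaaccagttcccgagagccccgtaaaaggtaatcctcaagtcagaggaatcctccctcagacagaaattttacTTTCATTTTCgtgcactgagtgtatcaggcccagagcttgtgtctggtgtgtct
Apol8, chr15:77756961-77757260, minus strand: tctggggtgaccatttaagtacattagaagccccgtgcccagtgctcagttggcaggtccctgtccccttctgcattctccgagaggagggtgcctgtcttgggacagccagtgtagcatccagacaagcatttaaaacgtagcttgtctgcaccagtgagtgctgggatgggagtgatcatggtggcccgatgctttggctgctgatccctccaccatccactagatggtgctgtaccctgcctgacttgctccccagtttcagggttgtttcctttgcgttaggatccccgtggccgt
Apol7a, chr15:77399061-77399360, minus strand: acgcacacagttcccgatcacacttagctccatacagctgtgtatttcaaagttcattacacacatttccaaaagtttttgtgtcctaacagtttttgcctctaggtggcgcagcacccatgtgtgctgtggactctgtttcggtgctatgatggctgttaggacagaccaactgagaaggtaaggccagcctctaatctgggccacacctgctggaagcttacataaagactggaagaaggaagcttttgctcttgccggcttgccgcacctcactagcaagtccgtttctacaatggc

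The windows of Apol9a and Apol9b were the same sequence, base for base, over all 278 bases that they share, and differ in extent because the annotated starts lie at different places in it. Both held 2 ISRE-like matches that overlap in the stretch TTTCAGTTTCCATTTC, the reverse complement of the motif. The first match began 59 bases and the second 53 bases before the annotated start of Apol9a, and 37 and 31 bases before that of Apol9b. Apol10b held 1 match, TTTCATTTTC, which spans its annotated start. Apol7c and Apol7e, relatives of Apol7a, also held 2 overlapping matches each, 6 bases apart as in the Apol9 pair, and Apol10a, Apol11a and Apol11b held 1 each, TTTCACTTTC in all 3. The windows of Apol8 and Apol7a held none. Among 11 Apol genes with a window, 8 held an exact match, 3 of the 4 members and 5 of the 7 others. The share was 3.44% in all 32851 promoter windows of the same length. These 8 are not separate cases, since several windows are near copies. Besides the Apol9 pair, Apol11a and Apol11b were 99.3% identical over 300 aligned positions, and Apol7c and Apol7e 87.9% over 232. With 1 mismatch allowed in the fixed letters, 10 of the 11 held a match, Apol8 included, but so did 35.4% of all windows. The GAS motif TTCNNNGAA was present in Apol10a, Apol11a and Apol11b and in no member, against 8.30% of all windows, and the kappa B motif was present in none of the 11, against 8.46%. A match is a run of letters and not a measured binding site. Apol7c and Apol11a each held an ISRE-like match and had no count in any library, while Apol8, with no exact match in its window, was among the members with a large difference between the groups.

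**Figure D1:**
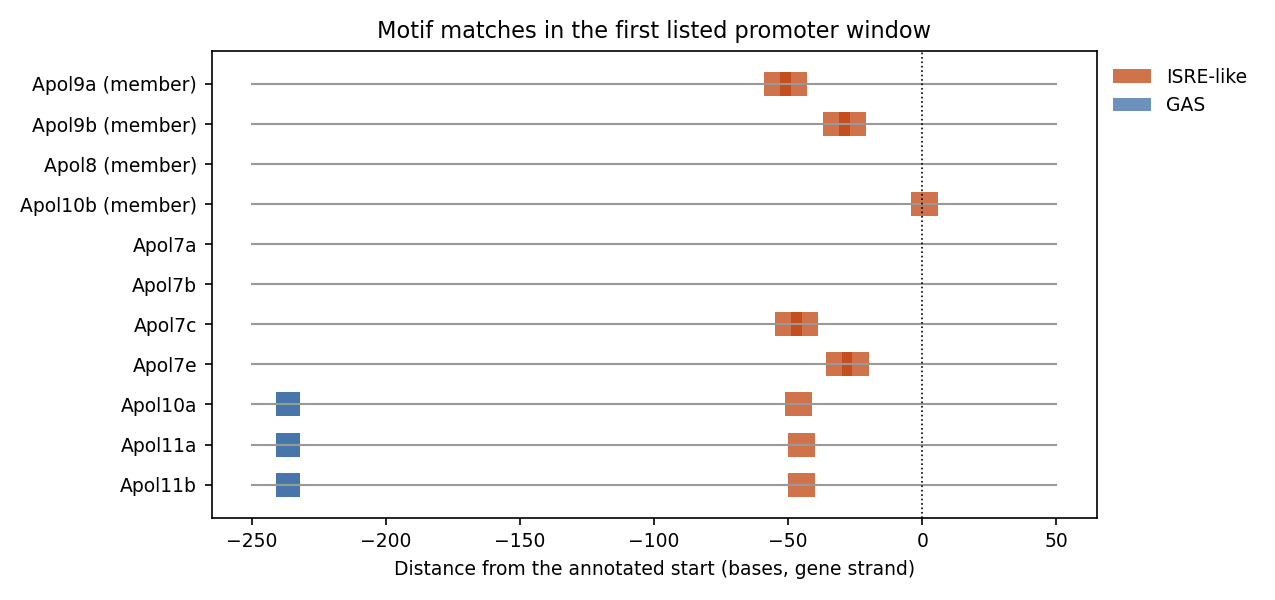
Positions of motif matches in the first listed promoter window of 11 Apol genes; the horizontal axis is the distance in bases from the annotated start on the strand of the gene, the dotted line is that start, and darker overlap marks where 2 matches share bases. ISRE-like matches lie within 60 bases of the start in 8 genes, Apol8, Apol7a and Apol7b hold none, and GAS matches lie far upstream in Apol10a, Apol11a and Apol11b.

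Library totals ran from 19634876 to 22824582 estimated counts in shCopa and from 22282547 to 24546142 in shCon, so 3 counts, the floor used for a gene with no counts, stand for 0.122 to 0.153 CPM (counts scaled to a fixed library total). Copa was at 186, 181 and 187 CPM in shCopa libraries 1 to 3, against 419, 516 and 526 CPM in shCon libraries 1 to 3, 37.9% of the control level (adjusted p = 0.000149 by edgeR's quasi-likelihood test with Benjamini-Hochberg adjustment). Library shCon 1 stood apart: on the log2 CPM scale across genes it correlated at 0.973 and 0.972 with shCon 2 and 3, which correlated at 0.990 with each other. Of 8 bile duct epithelium markers, 4 fell, against 18.4% of all tested genes, 3 did not pass and Epcam was too low to test. Krt7 fell to 36.9% of control, Spp1 to 66.5%, Krt18 to 73.7% and Krt8 to 79.3%. Without shCopa 2 or without shCopa 3, 2 of the 8 markers fell. Krt19 and Krt8, keratins of bile duct cells, were expressed in both groups. Krt19 did not pass, at 522 to 555 CPM in shCopa and 533 to 621 CPM in shCon. Fibroblast markers summed to 168 to 182 CPM in shCopa and 184 to 223 CPM in shCon, nearly all from Dcn, with 1 of 3 tested lower (2 lower and 1 higher without shCon 1); 1 of 3 tested hepatocyte markers, Alb, rose. The labels do not say whether replicates were separate cultures; p-values therefore rest only on the spread between these libraries, which may be technical.

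Apol9a and Apol9b carried most of the family's counts in both groups and were about as far apart between groups as each other. Apol9a was at 87.9, 91.0 and 101 CPM in shCopa libraries 1 to 3, against 11.0, 12.3 and 11.2 CPM in shCon libraries 1 to 3. All 3 shCopa libraries were well above all 3 shCon libraries, with shCopa 3 the highest. The means were 93.1 ± 6.57 CPM in shCopa and 11.5 ± 0.697 CPM in shCon (SD, n = 3 each), an 8.08-fold difference in the fit across all genes (log2 fold change 3.01 ± 0.10, SE). Apol9b was at 59.7, 60.2 and 77.0 CPM in shCopa, against 8.03, 7.59 and 7.64 CPM in shCon. Here too shCopa 3 was the highest and the groups were far apart, with means of 65.7 ± 9.82 CPM in shCopa and 7.75 ± 0.240 CPM in shCon (SD, n = 3 each), an 8.46-fold difference (log2 fold change 3.08 ± 0.13, SE). In bulk RNA, more cells that express a gene and more RNA per cell cannot be told apart.

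How the reads of Apol9a and Apol9b were divided is uncertain, because the longest coding transcripts of the pair are 98.4% identical over 1475 aligned bases. Of the 1431 windows of 100 bases in that transcript of Apol9a, 41.1% occur unchanged in a transcript of Apol9b, and 34.9% of the 1474 windows of Apol9b occur in Apol9a. Apol6, Apol8 and Apol10b share no such window with any other Apol gene. In the deposited estimates, Apol9a and Apol9b had fractional counts in 6 of 6 libraries, every other Apol gene had whole counts throughout, and the pair's counts always added up to a whole number (within 0.000001). Apol7b and Apol7e share 56.9% and 58.4% of such windows with other Apol genes and had whole counts, of at most 3 in a library; how the fractions arose was not tested. The sums were 3340, 3502 and 3514 counts in shCopa libraries 1 to 3, against 410, 464 and 460 counts in shCon libraries 1 to 3. The sum is free of the division within the pair, and fitted as 1 gene it was at 159 ± 16.3 CPM in shCopa and 19.3 ± 0.552 CPM in shCon (SD, n = 3 each), 8.24-fold apart (log2 fold change 3.04 ± 0.11, SE).

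The share of the pair's counts given to Apol9a was 59.5%, 60.2% and 56.6% in shCopa libraries 1 to 3, against 57.7%, 61.9% and 59.5% in shCon libraries 1 to 3. The shares of the groups overlap, so the division between the copies did not differ beyond the spread between libraries. Together the pair made up 92.2% to 93.9% of all Apol counts in shCopa, against 78.2% to 82.1% in shCon.

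**Figure D2:**
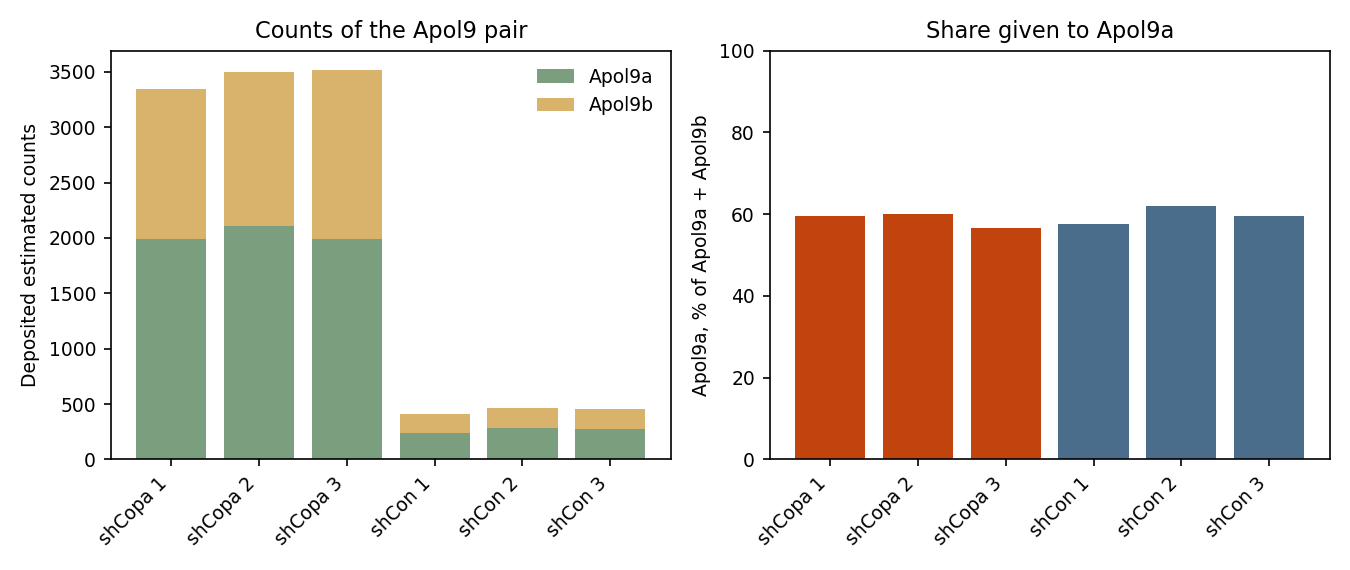
Left, deposited estimated counts of Apol9a and Apol9b stacked for each library, 3340 to 3514 in shCopa and 410 to 464 in shCon; right, the percentage of that sum given to Apol9a, with bars coloured by group. The heights on the left differ widely between groups, while the share on the right stays between 56.6% and 61.9% in all 6 libraries.

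Apol8, which stands next to Apol9b in the run, was low in shCon and clearly present in shCopa. Its level was 6.46, 7.64 and 7.32 CPM in shCopa libraries 1 to 3, against 1.11, 0.815 and 0.985 CPM in shCon libraries 1 to 3, from 145 to 177 counts in a shCopa library and 19 to 24 in a shCon library. The groups did not overlap, and shCopa 2 was the highest library here, unlike for the Apol9 pair. The means were 7.14 ± 0.614 CPM in shCopa and 0.971 ± 0.150 CPM in shCon (SD, n = 3 each), a 7.33-fold difference (log2 fold change 2.87 ± 0.20, SE). The fold changes of Apol9a, Apol9b and Apol8 were thus of like size, although their levels in shCopa differed widely.

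Apol6 and Apol10b had too few counts to pass the filter on low counts. Apol6 had 14, 8 and 3 counts in shCopa, against 1, 5 and 0 counts in shCon. Its groups overlap, and the group sums of 25 and 6 counts give a depth-scaled ratio of 4.56, with an exact 95% interval of 1.82 to 13.6 that covers counting error only. The annotated span of Apol6 overlaps that of Mb, the myoglobin gene, which had 0.0442, 0.173 and 0.354 CPM in shCopa and none in shCon; no source used here gives the strand setting of the counting, so reads of the overlap cannot be told apart. Apol10b had 4, 2 and 1 counts in shCopa and none in any shCon library. Each shCopa library was above each shCon library, but by at most 4 counts, about the 3 counts that a count of 0 allows in a library, so no fold is given.

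**Figure D3:**
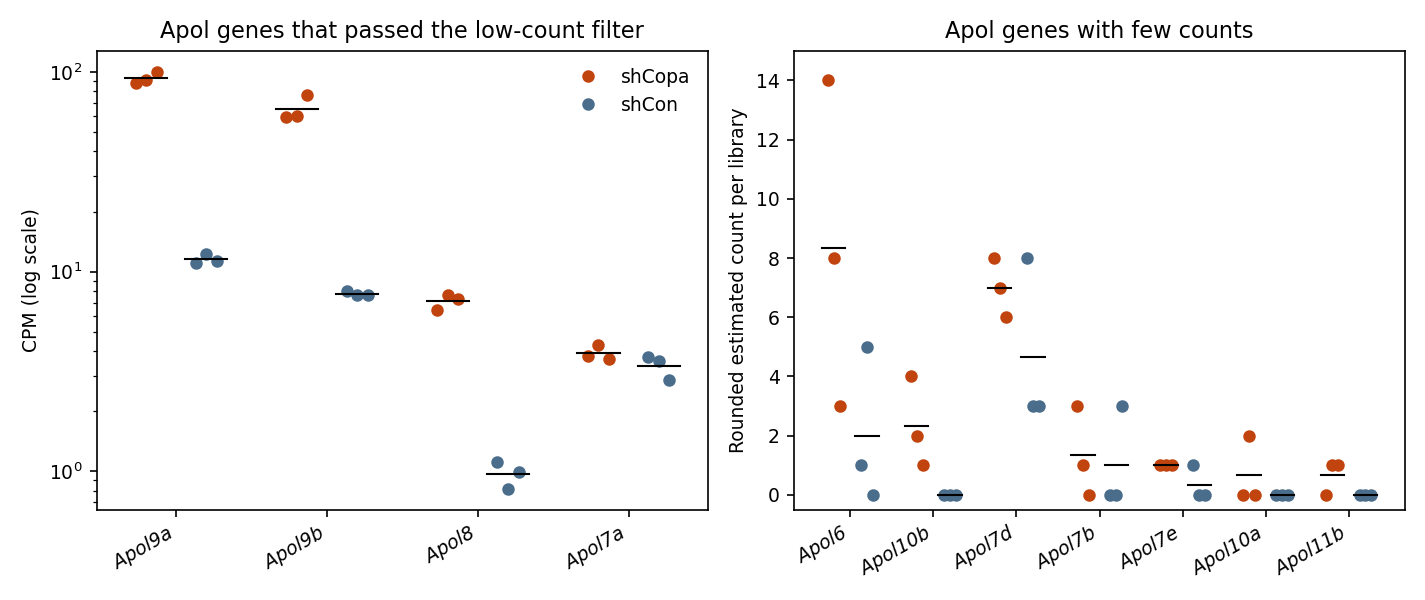
Values of Apol genes in each library, with a horizontal bar at the mean of 3 libraries: left, CPM on a log scale for genes that passed the low-count filter; right, rounded estimated counts on a linear scale for genes with few counts. Apol9a, Apol9b and Apol8 are separated between the groups, Apol7a is not, and the remaining genes have at most 14 counts in any library.

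Of the 5 members, 3 passed the filter, and all 3 were among the 18.2% of the 14807 tested genes that were called higher in shCopa at an adjusted p under 0.05 in the fit across all genes. Every shCopa library was above every shCon library in these 3 and in Apol10b, as in 27.2% of all tested genes, while in 26.9% every shCopa library was below every shCon library. Nothing is read from these counts, since the members were listed with this contrast known. By log2 fold change, Apol9b, Apol9a and Apol8 stood at places 183, 195 and 220 from the top of the tested genes, whose median log2 fold change was -0.01.

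Outside the members, 1 Apol gene had enough counts to test. Apol7a, a relative whose gene begins the run beside Apol9a, was at 3.76, 4.27 and 3.64 CPM in shCopa libraries 1 to 3, against 3.71, 3.56 and 2.87 CPM in shCon libraries 1 to 3. Its groups overlap, and it did not pass the test (edgeR adjusted p = 0.420). The log2 fold change was 0.20 ± 0.18 (SE), with an approximate 95% interval of -0.15 to 0.56. That interval lies below the fitted changes of Apol9a, Apol9b and Apol8, although the difference between genes was not itself tested. Apol7d, which is annotated as a long noncoding RNA on chromosome 1, had 6 to 8 counts in shCopa libraries and 3 to 8 in shCon libraries. Apol7b had 0 to 3 counts per library in either group, Apol7e 1 count in each shCopa library and 0 to 1 in shCon, and Apol10a and Apol11b 2 counts each over all shCopa libraries and none in shCon. Apol7c, Apol11a and the pseudogene Apol10c-ps had no count in any library, which allows up to 3 counts in each.

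Levels of different genes were compared per kilobase of the longest coding transcript, and Apol8 and Apol7a changed places between the groups. Apol9a led in both, at 60.9 ± 4.29 CPM per kilobase in shCopa and 7.53 ± 0.456 in shCon (SD, n = 3 each), followed by Apol9b at 41.7 ± 6.24 in shCopa and 4.93 ± 0.153 in shCon. The order within that pair rests on the division of reads. Next came Apol8 in shCopa, at 2.30 to 2.73 CPM per kilobase with Apol7a below it at 1.52 to 1.79. In shCon the next was Apol7a, at 1.20 to 1.55 CPM per kilobase, above Apol8 at 0.291 to 0.398. Neither pair of ranges overlaps. Apol6 was lower, at 0.0655 to 0.268 CPM per kilobase in shCopa and 0 to 0.0927 in shCon, and the order among Apol6, Apol10b and the other genes with a few counts is not given.

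The genes whose profiles over the 6 libraries were most like those of the members came from both inside and outside the interferon response. Likeness was the root mean square difference of log2 CPM, each profile centred on its mean, among 11924 genes with a proper symbol and at least 1 CPM. Among the nearest to Apol9a were Trim30d, of the TRIM family, at 0.0979 and Apol9b at 0.0987. Nearest to Apol9b were Fam171b at 0.0903, Apol9a at 0.0987 and Cd274, the gene of the immune checkpoint protein PD-L1, at 0.111. Nearest to Apol8 were Acsbg1, an acyl-CoA synthetase, at 0.175, Usp18, a protease that removes ISG15, at 0.177 and Sybu, a kinesin adaptor, at 0.181. Since the profiles are dominated by the step between the groups, this likeness says mainly that the size of that step was similar.

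Genes of the interferon response were grouped into lists by function, drawn up with earlier results of these data known. Their counts beside the share of all tested genes are therefore a description only. In the list of antiviral interferon-stimulated effectors, 25 of 25 tested genes rose (median log2 fold change 2.0), where 18.2% of all tested genes did. Oas3, a sensor of double-stranded RNA, was at 75.2 ± 12.5 CPM in shCopa and 3.28 ± 0.427 CPM in shCon (SD, n = 3 each), 22.9-fold apart (log2 fold change 4.51 ± 0.17, SE; edgeR adjusted p = 2.2e-05). Ifit1, which binds foreign RNA, rose 14.6-fold, and Oas1g, of a family of close copies whose reads may be divided, rose 16.4-fold. Of these 25 genes, 16 had a smaller log2 fold change than Apol8 and 8 a larger one than Apol9b, so the members lay in the upper part of that range. An ISRE-like match was present in 11 of the 20 antiviral effectors that have a promoter window. Among interferon-gamma-induced GTPases, which attack the vacuoles of intracellular microbes, 11 of 13 rose and none fell (median log2 fold change 1.45), and 1 fell without shCon 1. Gbp3 rose 5.57-fold, Irgm1 2.84-fold and Gbp2 2.73-fold. All 9 listed GTPases with a promoter window held an ISRE-like match, among them Tgtp1, which did not pass (log2 fold change -0.31). The share was 3.49% in 27025 genes with 1 window each. In the other interferon lists, matches were present in 2 of 8 transcription factors with a window and 2 of 5 restraining or modifying genes. They were present in 4 of 11 interferon genes and 0 of 8 receptors and kinases. Irf9 and Irf7 held none.

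Irf9 and Stat2, whose products act together at the ISRE, rose, by smaller fold changes than those of Apol9a, Apol9b and Apol8. Irf9, which binds the DNA, was at 57.1 ± 7.47 CPM in shCopa and 17.2 ± 1.53 CPM in shCon, and Stat2 at 94.8 ± 4.85 CPM in shCopa and 40.0 ± 8.88 CPM in shCon (SD, n = 3 each). Their fold changes were 3.32 and 2.37, and Irf7, the factor that amplifies interferon production, rose 5.84-fold (edgeR adjusted p = 3.44e-05 for Irf7). Irf1, which acts downstream of interferon gamma, did not pass (log2 fold change 0.08 ± 0.08, SE; edgeR adjusted p = 0.502). In all, 4 of 9 interferon transcription factors rose, where 18.2% of all tested genes did, and none fell (median log2 fold change 0.12). Without shCon 1, 1 of them fell.

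Among receptors and kinases, 2 of 9 rose and 2 fell (median log2 fold change 0.12). Over all tested genes, 18.2% rose and 18.4% fell. Without shCopa 1 or without shCopa 2, 1 of these receptors and kinases fell. Tyk2 and Jak1, kinases of the type I receptor, rose 1.53-fold each. Ifngr1, the ligand-binding chain of the interferon gamma receptor, fell to 54.3% of control and Ifnlr1, a chain of the interferon lambda receptor, fell to 55.3%. In the list of genes that restrain or modify interferon signalling, 3 of 7 rose and 1 fell (median log2 fold change -0.12): Usp18 rose 6.34-fold, Isg15, a ubiquitin-like modifier, 8.44-fold and Ptpn2, a phosphatase of JAK kinases, 1.52-fold, while Socs3, a feedback inhibitor, fell to 49.2% of control. Without shCon 1, 2 of these 7 fell. No interferon gene had enough counts to test. Ifnb1, which encodes interferon beta, was at 0, 2 and 1 counts in shCopa, against 0, 0 and 2 in shCon, and 7 of the 11 interferon genes had no count in any library.

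**Figure D4:**
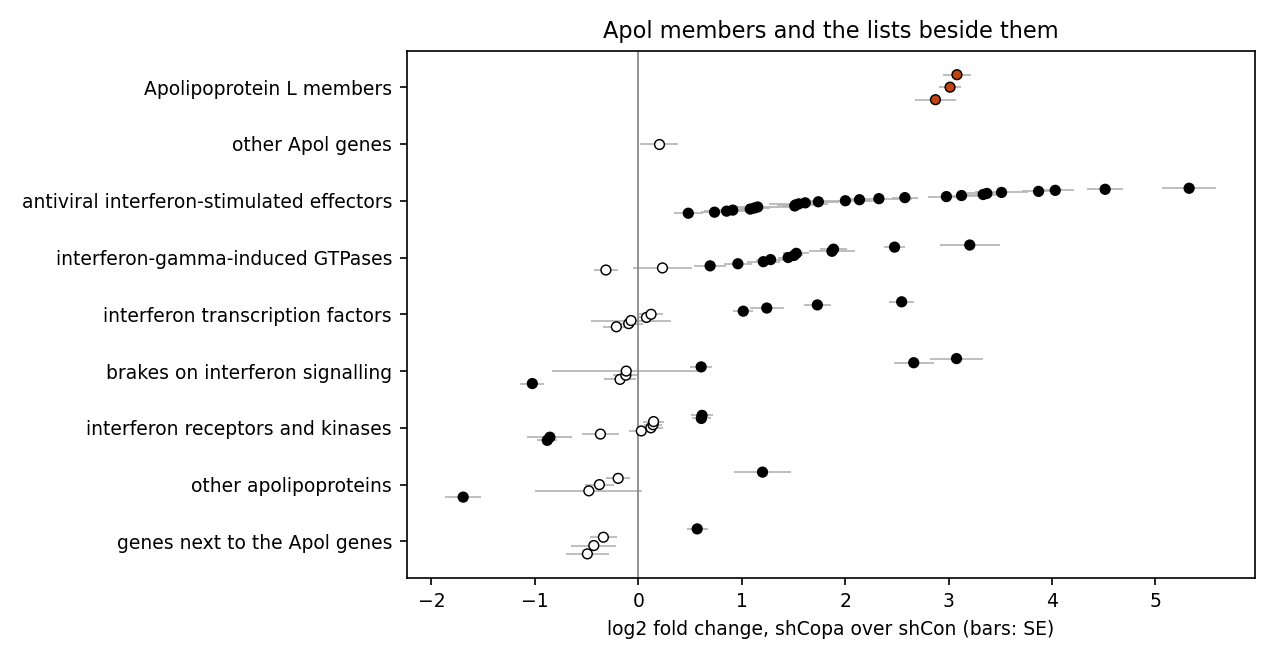
Log2 fold changes, shCopa over shCon, of the tested genes in each list, with SE as bars; red points are the 3 Apol members, shown without a test, black points passed an adjusted p under 0.05 and white points did not. The members lie near 3, within the upper part of the antiviral effectors, which run from 0.48 to 5.33, while Apol7a lies at 0.20.

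Many of these genes were highest in the same shCopa library. Within shCopa, library 3 was the highest in 23 of 25 antiviral effectors and 10 of 13 GTPases, and in 38.9% of all tested genes. Apol9a and Apol9b were also highest in shCopa 3, and Apol8 was not. Within shCon, no library led the list in the same way: shCon 3 was the highest in 12 of 25 antiviral effectors, shCon 2 in 7 and shCon 1 in 6.

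Other genes on both sides of the Apol genes gave no common pattern. Of the 5 nearest protein-coding genes with a proper symbol, Rbfox2, a splicing regulator between Apol6 and the run, rose 1.48-fold. Myh9, a myosin heavy chain, was at 2951 ± 114 CPM in shCopa and 3730 ± 575 CPM in shCon and did not pass (edgeR adjusted p = 0.0743), nor did Txn2, a mitochondrial thioredoxin, or Zfp647. Mb was too low to test. The median log2 fold change of the 4 tested neighbours was -0.38, and 2 of them fell without shCon 1.

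Apolipoproteins outside the family share its name but not its sequence. Of 17 such genes, 5 were tested, of which 1 rose, 1 fell and 3 did not pass (median log2 fold change -0.38). Over all tested genes, 18.2% rose and 18.4% fell. Without shCopa 3 or without shCon 1, 2 of these apolipoproteins fell. Clu, an extracellular chaperone also called apolipoprotein J, fell to 30.9% of control, at 850, 883 and 821 CPM in shCopa and 3544, 2454 and 2262 CPM in shCon, the highest of these in shCon 1. Apoe, a carrier of lipoprotein lipid, rose 2.30-fold, to 2.86 ± 0.454 CPM in shCopa, against 1.24 ± 0.341 CPM in shCon (SD, n = 3 each), a call that was lost without shCopa 1. Apoo, a mitochondrial protein, did not pass. For the lipid that Apol9 proteins bind, 4 of 10 genes of phosphatidylethanolamine synthesis and its close branches fell. None rose (median log2 fold change -0.31), and 18.4% of all tested genes fell. Chka, a choline and ethanolamine kinase, fell to 54.3% of control, and Cept1, an enzyme at the end of the branch, to 67.3%. Pisd, which makes the lipid in mitochondria, fell to 74.0%. Selenoi, in the same list, did not pass, at 87.4 ± 3.02 CPM in shCopa and 86.0 ± 7.88 CPM in shCon (SD, n = 3 each). Without any 1 of the shCopa libraries, 2 of the 10 genes fell. With other scaling factors, limma-voom or a filter of 1 CPM in 3 libraries, 3 of them fell.

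Few markers of leukocytes and endothelium had enough counts to test, and the calls among them went in both directions. The shares of all tested genes were 18.2% higher and 18.4% lower in shCopa. Of 7 leukocyte markers, 3 were tested: Ptprc and Lyz2 rose and Csf1r fell. Ptprc, the common leukocyte antigen, was at 0.929, 1.08 and 1.26 CPM in shCopa, against 0, 0.0429 and 0.0411 CPM in shCon, and Cd3e, Cd79a, Itgam and Adgre1 had at most 0.202 CPM in any library. The 7 markers summed to 96.4 to 99.1 CPM in shCopa and 143 to 182 CPM in shCon, mostly Csf1r. Of 5 endothelial markers, 1 was tested, Kdr, a receptor of vascular endothelial growth factor, which rose; the 5 summed to 1.59 to 3.79 CPM in shCopa and 0.0821 to 0.232 CPM in shCon. The part of such cells in the levels of Apol9a, Apol9b and Apol8 was not tested.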

How the data were processed

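RNA-seq of 6 libraries was used, 3 of shCopa and 3 of shCon cells; groups and replicate numbers came from the sample titles. Per the labels' protocols, TRIzol-extracted RNA was sequenced as read pairs. A single table of estimated counts for Ensembl genes, not normalized, was deposited by the authors. The submitters' processing notes name HISAT2 2.0.5, Trimmomatic, featureCounts, HTSeq and DESeq2, and the build GRCm39; which of them made the counts, with which annotation and strand setting, is not given in the sources used here.

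Estimated counts were rounded. Symbols from GENCODE M21 matched 52081 of 55414 identifiers; unmatched ones held 0.201% to 0.464% of counts. edgeR 4.0.16 in R 4.3.3 was used with TMM scaling, filterByExpr and robust quasi-likelihood fits. The p-values of 14807 genes were adjusted by Benjamini-Hochberg and called under 0.05. On simulated data, these steps recovered 14.9% of 1.5-fold, 71.6% of 2-fold and 98.5% of 4-fold changes, with 10 false calls among 133. A gene that did not pass may therefore still differ by a modest fold. Fold changes are shCopa over shCon. The interval of Apol6 and the floors cover counting error only, while that of Apol7a also rests on the spread between libraries. The interval of Apol7a was taken from the SE with a normal quantile, which makes it somewhat narrow with 3 libraries per group. Members and lists were chosen with earlier results of these data known. Named were all Apol genes, Copa, Ifnb1, Stat2, Irf9, Irf1 and Irf7, neighbouring genes, 3 alike genes per tested member, and the up to 3 tested genes with the smallest adjusted p in a list, plus called genes against a list's direction; Ptpn2, Ifnlr1 and further marker genes were added after their values were seen. Some genes that meet this rule are left out here. Alternatives were other scaling, filters, DESeq2 1.42.0, limma-voom (limma 3.58.1), a replicate block, summed Apol counts and each library left out. No replicate pair agreed within sampling noise (chi-square per degree of freedom at least 4.35). Promoters came from RefSeq GRCm38.p6, with the first listed window per gene; motifs and transcripts (GENCODE M21) were compared in Python 3.11.15 with Biopython 1.88. Protein sequences were not used here. No promoter window is printed for Apol6.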

Additional observations from a re-analysis of the deposited data

How the results depend on the processing

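The log2 fold changes of the 3 tested members kept their sign and moved by less than the spread between replicates under other scaling factors, other filters, DESeq2, limma-voom and the replicate block: 2.84 to 2.90 for Apol8, 2.98 to 3.04 for Apol9a and 3.05 to 3.11 for Apol9b. With each library left out in turn they were 2.76 to 2.97, 2.96 to 3.06 and 2.95 to 3.15 for Apol8, Apol9a and Apol9b. With the counts of all Apol genes added up, the value was 2.83. Among all tested genes, 1778 to 4317 were higher and 1755 to 4122 lower with 1 library left out, against 2691 and 2720 with all; the upper ends came without shCon 1 and the lower ends without shCopa 3. The replicate block gave 1964 higher and 1939 lower. Same-numbered libraries did not deviate together (correlations of deviations -0.16, -0.06 and -0.11). As deviations from the mean of only 3 libraries, these values cannot settle whether the numbers pair the samples. With the block, 1 receptor or kinase and 2 genes of phosphatidylethanolamine synthesis fell. Without the low-count filter 2 other apolipoproteins and 2 neighbours rose; with DESeq2 2 other apolipoproteins, 1 GTPase and 1 neighbour fell. The cause of these changes was not tested. With 1 library left out, 22 to 25 antiviral effectors and 11 GTPases rose; 0 to 1 other apolipoproteins rose and 1 to 2 fell; 1 to 2 receptors and kinases, 0 to 1 transcription factors, 1 to 2 restraining genes, 0 to 1 GTPases, 2 to 4 genes of phosphatidylethanolamine synthesis and 0 to 2 neighbours fell. Apol6 and Apol10b, with at most 14 and 4 counts in a library, are limited by depth.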
